A study of Danio rerio with 21 samples.

Results

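The genes described here make ribosomes or the RNA polymerase that copies ribosomal RNA (rRNA). They were picked by gene symbol, with earlier results of these data known. The symbols name nucleolar proteins, small- and large-subunit assembly factors, RNA polymerase I subunits and 2 ribosomal-protein paralogues. Of the 3064 genes with deposited values, 68 matched. Expression was measured by RNA-seq of sorted cells from TgBAC(runx1P2:Citrine);Tg(kdrl:mCherry) zebrafish embryos aged 28 to 30 hours post fertilisation (hpf). All groups carried both transgenes: Citrine is driven by the P2 promoter of runx1, which marks the blood-forming endothelium of the aortic floor, and mCherry by kdrl, which marks endothelium. From non-injected embryos (Wt), the groups used were haemogenic endothelium (HE), sorted as mCherry+ cells with bright Citrine (DP-R1hi), and aortic roof endothelium (ARE), sorted as mCherry+ cells with dim Citrine (DP-R1lo). The others were DP-R1hi cells from embryos injected with a runx1 morpholino (MO), and mCherry- Citrine- cells (DN, labelled non-endothelial tissue) from injected and non-injected embryos. Each group had 3 libraries, each made from at least 3000 cells of pooled embryos from several clutches, and every clutch was divided into an injected and a non-injected portion. These 15 libraries are part of a series of 21 samples in 7 groups; the DP-R1med and kdrl single-positive gates were not analysed here. The gates are operational, since Citrine brightness defines HE and ARE, and the DN gate mixes all embryonic tissues that lack both reporters. In the paper, ARE includes the sprouting inter-somitic vessels. The paper also saw lasting Citrine protein in primitive erythrocytes.

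Ribosome production starts in the nucleolus, where RNA polymerase I transcribes a long rRNA precursor. The small-subunit processome, built from the UTP-A, UTP-B and MPP10 complexes and the U3 snoRNP, folds and cuts its 5′ portion into the 18S rRNA of the 40S subunit, while the PeBoW complex and further factors shape the 60S subunit. Small nucleolar ribonucleoproteins (snoRNPs) modify the rRNA: box C/D particles add methyl groups and box H/ACA particles make pseudouridine. Demand for ribosomes is high in growing and dividing cells.

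Values are the authors' CPM, in which the reads of a gene are divided by the effective size of its library. The 3 deposited tables, 1 per comparison, list only genes that the authors called at a false discovery rate under 0.05. A member without values in a table was thus not among the genes called there. Whether it was tested, and the size of any difference, cannot be seen. For HE against ARE, 67 members were listed among 2732 genes; for MO against Wt, 2 among 676 genes in DP-R1hi and 21 among 176 genes in DN. Only mybbp1a was in all 3 tables. Effective library sizes were between 9.72 and 22.6 M reads, and the lowest member value, that of nol10 in ARE library 1, stood for 138 reads. Differences below are of log2(CPM + 1), "passed" means an adjusted p (limma, Benjamini-Hochberg over all genes that the authors tested) under 0.05, and ± beside a CPM is the SD over 3 libraries.

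The first comparison addressed how haemogenic endothelium differs from the ARE gate. All 67 listed ribosome-production genes were higher in HE, by 1.605- to 4.63-fold of the group means with a median of 2.43-fold, and for all 67 the lowest HE library lay above the highest ARE library. All 67 passed; among all listed genes, 38% passed as higher in HE, or 9.5% of the 10916 genes tested, and 39.7% of listed genes were higher in HE without overlap. Since listing itself required a call on these libraries, the pass is a check under another model. Of the 1099 listed genes higher in HE, 1037 passed and 1085 did not overlap. Passing and lack of overlap were thus usual for a listed gene that was higher, and they add little to the shared direction of the members. The rule for members used symbols and not the direction, but it was set with earlier results of these data known. The median log2 difference was 1.25 over the members, from 0.67 for nol12 to 2.13 for polr1b, against −1.003 over all listed genes. A log2 difference of at least 1 was reached by 53 of 67 members and by 510 of the 2732 listed genes. Summed over the 67 members, the HE libraries held 12263, 13126 and 13520 CPM and the ARE libraries 5134, 5282 and 5371 CPM, which is 1.23% to 1.35% of the normalised reads in HE and 0.513% to 0.537% in ARE. Libraries of a group lay close together: the coefficient of variation of a member had a median of 9.12% in HE and 11.99% in ARE, against 18.7% and 19.8% over all listed genes. The listed genes were not matched to the members by level, so whether members vary less at a given level was not tested. HE library 1 was the lowest of its group for 39 of the 67 members, and ARE library 1 for 37. In bulk samples, fewer cells of a type and less RNA per cell cannot be told apart.

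**Figure D1:**
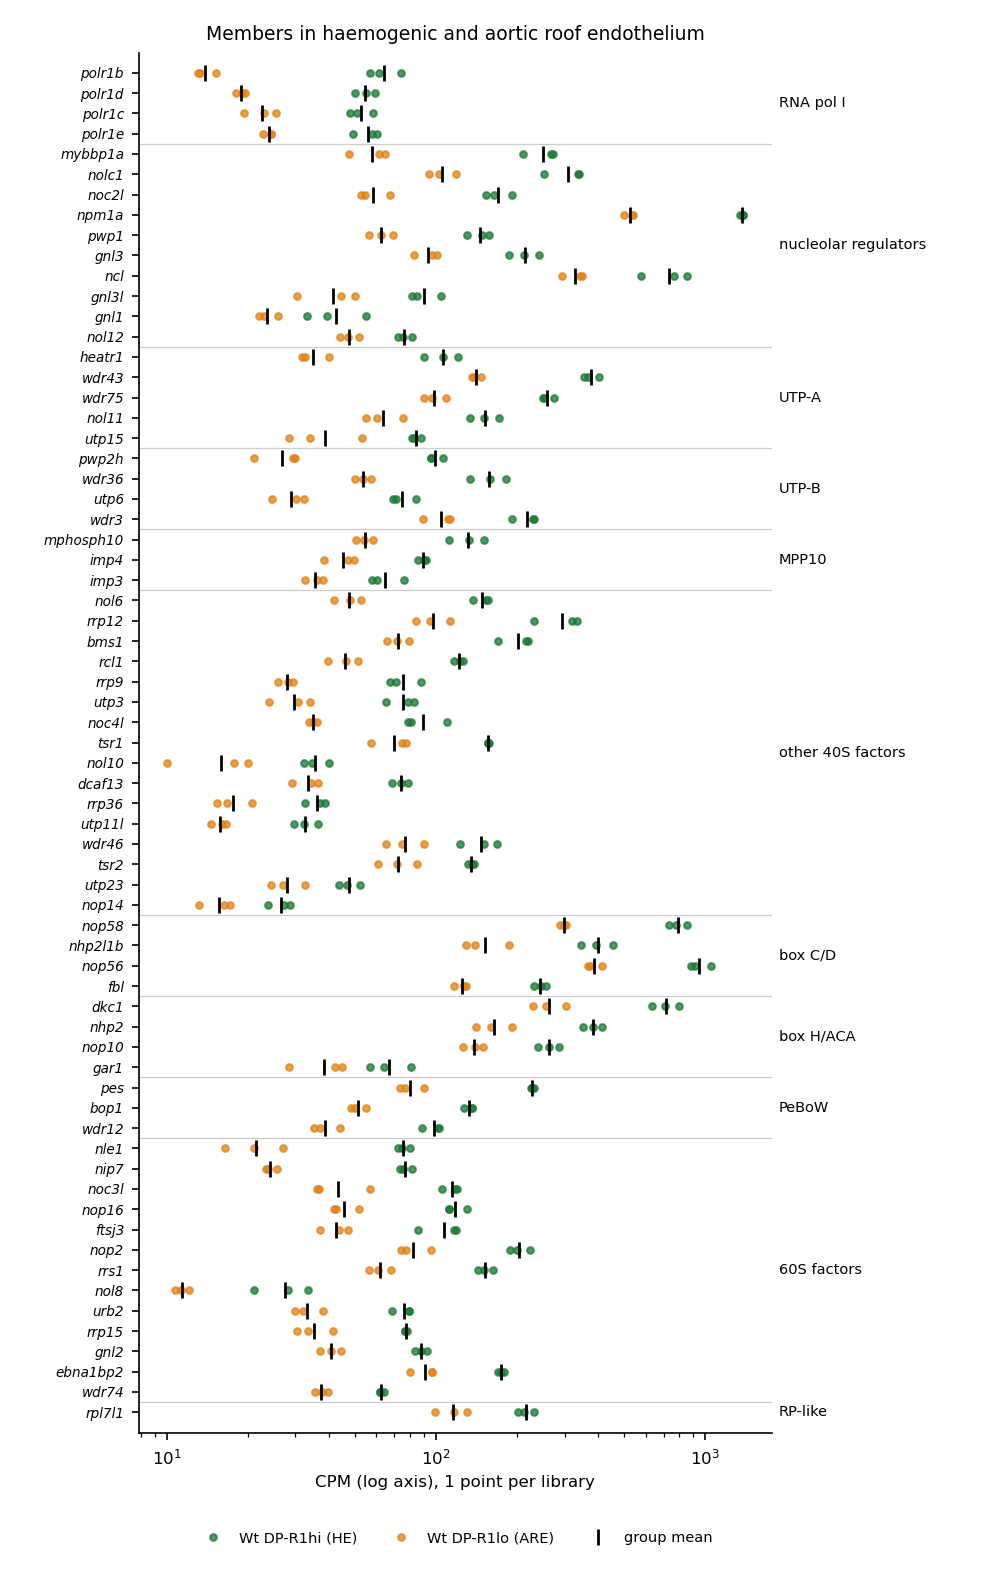
CPM of the 67 listed members in each of the 3 HE (green) and 3 ARE (orange) libraries on a log axis, with black ticks for the group means, ordered by role. The green points lie to the right of the orange points for all 67 genes, with npm1a at the top of the range and nop14, nol8 and nol10 near its lower end.

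RNA polymerase I subunits were represented by 4 genes, with a median log2 difference of 1.33. The gene with the largest difference of all members was polr1b, which codes for the second-largest subunit: it measured 61.2, 56.7 and 74.1 CPM in HE against 13.0, 15.2 and 13.3 CPM in ARE, a log2 difference of 2.13 ± 0.19 (SE, adjusted p = 2.25e-05). The shared subunit gene polr1d, whose product also sits in RNA polymerase III, measured 54.7, 59.2 and 49.8 CPM in HE against 18.1, 19.4 and 19.1 CPM in ARE. Even the highest ARE library stayed far below the lowest HE library for both. The other subunit genes, polr1c, likewise shared with RNA polymerase III, and polr1e, differed by 1.19 and 1.18. Outside the name rule, a list held 12 further names for RNA polymerase I genes. Of these, 3 were listed and all 3 passed as higher in HE, and the other names have no values here. The gene taf1b, for a subunit of the promoter selectivity factor, differed by 1.63 (17.6 ± 1.15 CPM in HE against 5.33 ± 2.70 CPM in ARE). The subunit genes znrd1 and twistnb differed by 1.201 and 1.15.

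Genes for regulators of rRNA transcription and for abundant nucleolar proteins numbered 10, with a median of 1.19. Among them mybbp1a, which codes for a nucleolar protein first described as a binding partner of Myb in mouse, measured 209.9, 266 and 271 CPM in HE against 47.5, 61.4 and 64.5 CPM in ARE, a log2 difference of 2.09 ± 0.16 (SE, adjusted p = 1.14e-05). It had the second-largest difference of the 67. The gene nolc1, which codes for the snoRNP chaperone Nopp140, measured 251, 336 and 341 CPM in HE against 93.8, 119 and 103 CPM in ARE, and noc2l, whose mammalian product inhibits histone acetylation, differed by 1.53. The highest CPM of the members, which are not per length, were those of npm1a, for nucleophosmin, at 1382, 1386 and 1343 CPM in HE against 539, 533 and 499 CPM in ARE. Its 3 HE values spanned a narrow range and it had the lowest adjusted p of the members, 4.74e-06, at a log2 difference of 1.39 ± 0.09 (SE). Nucleolin, another major nucleolar protein, is coded by ncl, which measured 733 ± 142 CPM in HE and 329 ± 30.6 CPM in ARE, a log2 difference of 1.14. The genes gnl3, for nucleostemin, and pwp1, for a chromatin protein at rRNA genes, measured 187, 212 and 241 CPM in HE against 82.7, 96.5 and 101 CPM in ARE and 131, 157 and 149 CPM in HE against 56.4, 68.9 and 62.3 CPM in ARE, respectively. The smallest differences were those of gnl3l (1.12), gnl1 (0.80) and nol12 (0.67). The call of gnl1 was lost without HE library 2 (adjusted p = 0.0565), HE library 3 (0.105) or ARE library 1 (0.0645).

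The UTP-A complex binds the nascent rRNA precursor first and, in human cells, also helps its transcription. Its 5 listed members had a median of 1.38. For heatr1 the libraries measured 90.5, 121 and 106 CPM in HE against 31.7, 39.97 and 32.5 CPM in ARE, and for wdr43 they measured 367, 355 and 404 CPM in HE against 136, 146 and 139 CPM in ARE. The groups were far apart for both, with log2 differences of 1.58 ± 0.17 (SE) and 1.41 ± 0.11 (SE). For wdr75 the values were 249, 251 and 273 CPM in HE against 90.5, 96.2 and 109 CPM in ARE. The remaining members, nol11 and utp15, differed by 1.25 and 1.15, and utp15 had the widest relative spread of any member in ARE, from 28.5 to 53.1 CPM. The UTP-B complex, which joins next, had 4 listed members and the highest median of the complexes with more than 1 gene, 1.44. Its scaffold gene pwp2h measured 95.4, 95.9 and 106 CPM in HE against 21.0, 29.5 and 29.9 CPM in ARE, and wdr36 measured 134, 158 and 181 CPM in HE against 53.6, 50.1 and 57.2 CPM in ARE. For wdr3 the values were 192, 232 and 228 CPM in HE against 89.7, 111 and 112 CPM in ARE. For pwp2h the groups stood far apart, while utp6 and wdr3 differed by 1.34 and 1.05. The MPP10 complex had the lowest median of the multi-gene complexes, 0.98, from 3 genes: mphosph10 measured 112, 133 and 151 CPM in HE against 54.2, 58.5 and 50.3 CPM in ARE, imp4 measured 90.3, 85.3 and 91.8 CPM in HE against 49.7, 38.2 and 47.1 CPM in ARE, and imp3 differed by 0.84.

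Another 16 genes code for further small-subunit processome proteins and 40S assembly factors, with a median of 1.16. The leading gene was nol6, the counterpart of yeast Utp22; it measured 137, 153 and 156 CPM in HE against 41.9, 48.0 and 52.5 CPM in ARE, a log2 difference of 1.63 ± 0.15 (SE). Next was rrp12, for a factor in the export and maturation of pre-ribosomes, at 231, 319 and 333 CPM in HE against 84.3, 95.2 and 113 CPM in ARE. In both, HE library 1 was the lowest of its group and still lay above all ARE libraries. The GTPase gene bms1 differed by 1.46, and rcl1, for its partner, measured 122 ± 4.99 CPM in HE and 45.7 ± 5.95 CPM in ARE. The U3 protein gene rrp9 measured 71.2, 87.5 and 67.6 CPM in HE against 26.0, 28.2 and 29.4 CPM in ARE, dcaf13, the counterpart of yeast Sof1, measured 78.7, 68.7 and 74.1 CPM in HE against 36.5, 34.3 and 29.2 CPM in ARE, and wdr46, the counterpart of yeast Utp7, measured 122, 151 and 168 CPM in HE against 65.1, 90.2 and 74.9 CPM in ARE. These 3 are also among the genes listed for DN cells. Further members, noc4l, utp3, tsr1, nol10, rrp36, utp11l and tsr2, had log2 differences from 1.33 for utp3 down to 0.91 for tsr2. At the lower end stood utp23 (0.75) and nop14 (0.74). The highest adjusted p of all members was that of nop14, 0.0260; its call was lost without HE library 2 (0.111), HE library 3 (0.0816) or ARE library 1 (0.0959), and that of utp23 without HE library 1 (0.0602).

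Both modifying particles had all 4 core proteins listed and higher in HE. In the box C/D particle, fbl, for the methyltransferase fibrillarin, measured 256, 245 and 231 CPM in HE against 127, 129 and 117 CPM in ARE. The paired core proteins gave 885, 917 and 1053 CPM in HE against 367, 375 and 413 CPM in ARE for nop56, and 735, 782 and 853 CPM in HE against 299.9, 289 and 304 CPM in ARE for nop58. The fourth core gene, nhp2l1b, for the RNA-binding 15.5K protein, measured 454, 393 and 347 CPM in HE against 187, 129.5 and 140.0 CPM in ARE. The spread within a group was small beside the gap between groups in all 4, and their log2 differences were 0.97, 1.302, 1.403 and 1.39 in this order, with adjusted p between 8.53e-06 and 0.000152. In the box H/ACA particle, dkc1, for the pseudouridine synthase dyskerin, which in vertebrates also holds telomerase RNA, measured 637, 709.6 and 801 CPM in HE against 229, 257 and 303 CPM in ARE. Its partners gave 414, 383 and 351 CPM in HE against 191, 141 and 160.0 CPM in ARE for nhp2, and 287, 262 and 239 CPM in HE against 149.6, 139 and 126 CPM in ARE for nop10. The last core gene, gar1, gave 56.7, 80.5 and 63.8 CPM in HE against 28.4, 42.1 and 44.7 CPM in ARE. Here the difference fell from 1.44 ± 0.13 (SE) for dkc1 to 0.80 ± 0.21 (SE) for gar1, and the gar1 groups lay closest of these 4 genes: its highest ARE value was 44.7 CPM and its lowest HE value 56.7 CPM. The gar1 call was lost without HE library 2 (adjusted p = 0.106) or ARE library 1 (0.0621). Beyond the name rule, the snoRNP assembly genes shq1, which loads dyskerin, and znhit3, which acts on box C/D particles, had the largest differences among the other assembly factors, 1.94 and 1.81.

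On the large-subunit side, all 3 proteins of the PeBoW complex, needed to mature the 60S precursor, were listed. They measured 225, 231 and 227 CPM in HE against 76.5, 73.3 and 90.1 CPM in ARE for pes, 127, 136 and 136 CPM in HE against 55.1, 50.1 and 48.2 CPM in ARE for bop1, and 102, 88.9 and 103 CPM in HE against 43.8, 35.03 and 37.0 CPM in ARE for wdr12. Their log2 differences were 1.503 ± 0.13 (SE), 1.36 ± 0.14 (SE) and 1.32 ± 0.16 (SE). The 13 other 60S factors had a median of 1.29. Largest was nle1, whose yeast counterpart is a substrate of the Rea1 remodelling enzyme, at 74.8, 72.1 and 79.9 CPM in HE against 16.4, 21.1 and 26.9 CPM in ARE, followed by nip7 at 81.2, 73.7 and 75.4 CPM in HE against 25.7, 23.4 and 23.6 CPM in ARE. Every HE library held far more of both than any ARE library. The noc3l libraries measured 105, 118 and 119 CPM in HE against 36.7, 56.8 and 36.2 CPM in ARE, and those of ftsj3, for an rRNA methyltransferase in yeast and human, measured 85.5, 117 and 118 CPM in HE against 47.0, 43.4 and 36.9 CPM in ARE. The others, nop16, nop2, rrs1, nol8, urb2, rrp15, gnl2 and ebna1bp2, differed by 1.36 for nop16 to 0.94 for ebna1bp2, and the smallest difference was that of wdr74 (0.73). The ribosomal-protein paralogue rpl7l1 measured 232, 202 and 212 CPM in HE against 129.7, 99.3 and 117 CPM in ARE, a log2 difference of 0.90 ± 0.14 (SE).

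**Figure D2:**
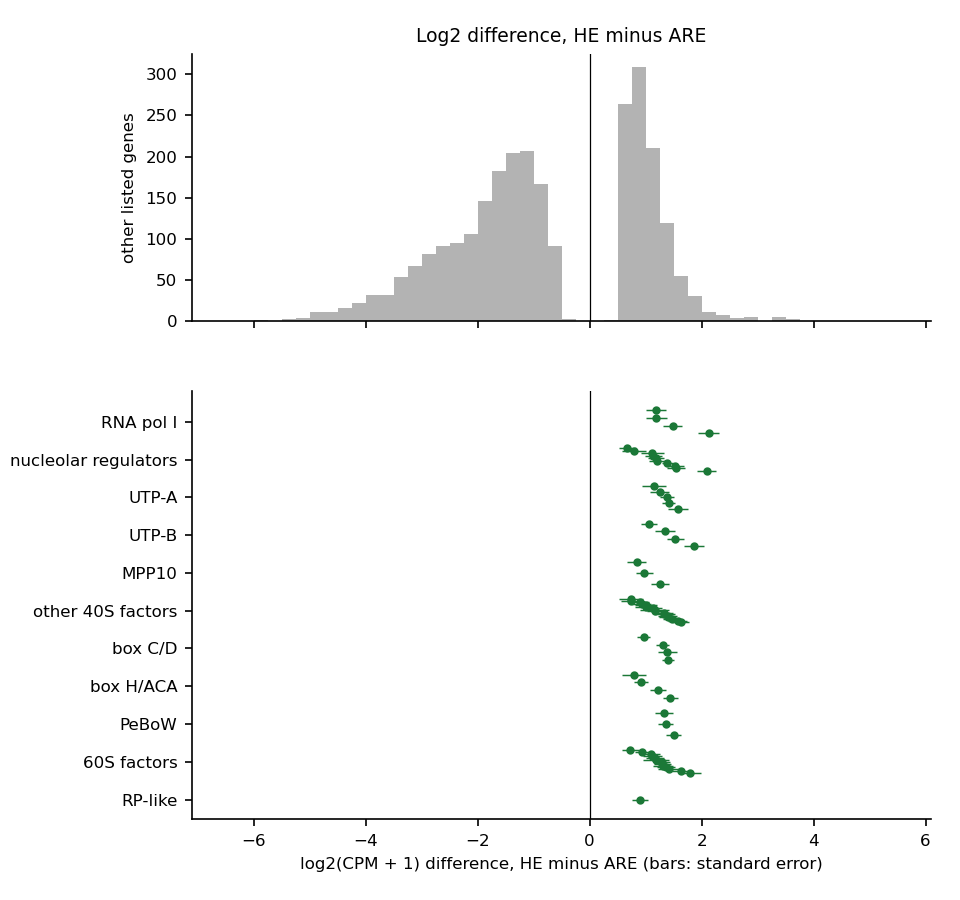
Upper panel, number of other listed genes by log2(CPM + 1) difference between HE and ARE. Lower panel, the 67 members by role, each with its standard error; all members lie between 0.67 and 2.13, while the other listed genes have a median of −1.05.

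The same direction was seen in genes of the pathway that the name rule did not take. Of a list of 99 names taken as other ribosome assembly factors, 57 were listed, all 57 higher in HE and 56 passing, with a median of 1.09. The helicase gene ddx56 measured 233 ± 24.1 CPM in HE against 74.1 ± 5.46 CPM in ARE. Of 28 names for the RNA exosome and rRNA-cutting enzymes, 18 were listed and all 18 passed as higher, led by pop5 (1.598) and exosc4 (1.43). For RNA polymerase III, which makes 5S rRNA and tRNA, 10 of 24 names were listed, all 10 higher and 9 passing. The largest difference was 1.98 for polr3gla, at 12.9 ± 2.71 CPM in HE against 2.52 ± 0.481 CPM in ARE. Of the mature cytosolic ribosomal proteins only rps20 was listed, higher by 0.40 on the log2 scale. The Myc family, whose members drive ribosome production in vertebrates, did not move as 1 block: mycb passed as higher in HE by 1.27, while myca fell by 1.32 and mxi1, for a Myc antagonist, by 1.503. These lists were assembled with earlier results of the same data known.

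Other values moved with the same comparison. All 22 listed endothelial markers were lower in HE, with summed values of 179 to 506 CPM against 3219 to 6419 CPM in ARE, and all 14 listed haemogenic markers were higher, 3090 to 3325 CPM against 772 to 968 CPM. Markers of other cell types were also unequal: the 16 listed epidermis and periderm markers summed to 210.0 to 469 CPM in HE against 2644 to 5327 CPM in ARE, the 6 neural crest and sclerotome markers to 8.18 to 20.8 CPM against 826 to 1043 CPM, the 9 myeloid markers to 769 to 849 CPM against 1534 to 2051 CPM, the 4 pronephros, gut and liver markers to 37.2 to 86.0 CPM against 1081 to 1815 CPM, the 20 neural markers to 126 to 193 CPM against 478 to 681 CPM, and the 6 erythroid markers to 2458 to 2857 CPM against 614 to 853 CPM. Of the myeloid markers 8 passed as lower, among them mpeg1.1, a macrophage gene, with a log2 difference of −4.24, and mmp9 passed as higher (0.86). Most of the pronephros, gut and liver sum was ctsla, at 48.5 ± 22.5 CPM in HE against 1348 ± 395 CPM in ARE. Of that list ctsla, pax2a and tfa passed as lower. Only sox17 passed as higher, by 2.02 (9.39 ± 3.27 CPM in HE against 1.53 ± 0.706 CPM in ARE). The 2 listed muscle markers summed to 1.42 to 1.76 CPM against 4.58 to 25.2 CPM. None of these listed markers was at 0 in any library, and their part in the difference of the ribosome genes was not tested. The sums cover only markers listed for this comparison, and those not listed have no ARE values. In the same HE libraries, the 10 myeloid markers listed for MO against Wt in DP-R1hi summed to 8849 to 11088 CPM. The 10 erythroid markers listed there summed to 38175 to 49970 CPM.

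The MO groups set embryos injected with the runx1 MO against non-injected ones, in the haemogenic gate and in DN cells. The paper used the DN cells to correct for off-target effects of the MO. No group had a control morpholino, so effects of the injection and of runx1 loss cannot be told apart in these libraries. In DN cells 21 members were listed. Of these, 20 were higher with the MO and 1, rpl22l1, was lower, in every case without overlap between the 3 MO and 3 Wt libraries; without overlap, 67.6% of the 176 listed genes were higher and 31.2% lower. Over all 11479 genes tested, wdr43 and dcaf13 passed as higher and rpl22l1 as lower, 2 and 1 members, where 19.3% of listed genes (0.296% of tested genes) passed as higher and 3.41% (0.0523%) as lower; the other 18 members had adjusted p from 0.0561 to 0.305. The median log2 difference of the 21 members was 0.92, against 0.997 over all listed genes. The 20 members that were higher made up 16.8% of the 119 listed genes that were higher with the MO. Summed, these 20 stood at 5604, 4532 and 4978 CPM with the MO and 2469, 2648 and 2538 CPM without it.

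The clearest of them was wdr43, of the UTP-A complex, which measured 446, 391 and 458 CPM with the MO against 136, 153 and 174 CPM without it, a log2 difference of 1.48 ± 0.18 (SE, adjusted p = 0.00661). The processome gene dcaf13 measured 104, 77.9 and 82.5 CPM with the MO against 37.1, 31.9 and 26.4 CPM without it, a difference of 1.44 ± 0.21 (SE, adjusted p = 0.0234). For both, the lowest MO library was well above the highest Wt library. Without Wt DN library 1, neither passed (0.129 for wdr43 and 0.181 for dcaf13), and dcaf13 was also lost without MO library 1 (0.0707), Wt library 2 (0.0672) or Wt library 3 (0.0780). With the libraries rescaled by median ratios over the listed genes, which moves MO against Wt by 0.91 on the log2 scale, wdr43 and dcaf13 measured 0.57 and 0.55 and did not pass, and the median of the 21 members was 0.0133, with 14 positive and 7 negative. The listed genes were chosen as changed and were mostly higher with the MO, so that rescaling is no check of the authors' normalisation; it gives the members' values relative to the other listed genes.

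The remaining DN members did not pass, and their values were as follows. Of UTP-A and UTP-B, wdr75 measured 149, 154 and 166 CPM with the MO against 76.9, 92.0 and 53.7 CPM without it. The UTP-B genes gave 152, 148 and 140.2 CPM with the MO against 67.2, 97.9 and 61.1 CPM without it for wdr36, and 167, 163 and 177 CPM with the MO against 76.3, 104 and 73.4 CPM without it for wdr3. In all 3 the Wt library 2 was the highest of its group and still below every MO library. In the processome, nol6 gave 93.8, 96.7 and 99.2 CPM with the MO against 48.5, 70.2 and 33.1 CPM without it. The U3 gene rrp9 gave 80.3, 72.3 and 87.5 CPM with the MO against 40.1, 38.5 and 48.1 CPM without it, and wdr46 gave 109.6, 89.6 and 105 CPM with the MO against 49.7, 59.3 and 59.5 CPM without it. The Wt values of nol6 were the most scattered of the members, and its adjusted p of 0.305 was the highest. Of the snoRNP genes, nop58 gave 738, 569 and 667 CPM with the MO against 376, 359 and 316 CPM without it, and dkc1 gave 771, 548 and 685 CPM with the MO against 349, 347 and 356 CPM without it. The 3 Wt values of dkc1 were nearly equal while its MO values were more scattered. The PeBoW genes gave 108, 139.8 and 118 CPM with the MO against 45.99, 68.7 and 54.0 CPM without it for bop1, and 118, 86.8 and 95.4 CPM with the MO against 56.4, 55.6 and 53.6 CPM without it for wdr12. Of the 60S factors, nle1 gave 50.9, 53.6 and 49.0 CPM with the MO against 19.8, 33.98 and 22.8 CPM without it, and ftsj3 gave 75.8, 77.4 and 80.4 CPM with the MO against 34.8, 51.2 and 24.7 CPM without it. The nle1 and ftsj3 groups were well separated, and noc3l gave 97.3, 71.0 and 94.1 CPM with the MO against 36.2, 54.1 and 49.5 CPM without it. Among the nucleolar regulators, nolc1 came nearest to passing, at 283, 284 and 290.2 CPM with the MO against 139.8, 166 and 145 CPM without it and an adjusted p of 0.0561. For npm1a the values were 1612, 1135 and 1158 CPM with the MO against 659.7, 618 and 764 CPM without it, and MO library 1 stood well above the other MO libraries. The gnl3 libraries gave 170.5, 130.2 and 160.0 CPM with the MO against 89.1, 90.7 and 76.3 CPM without it, those of pwp1 gave 125, 106 and 101 CPM with the MO against 60.1, 62.7 and 62.8 CPM without it, and those of mybbp1a gave 154, 139 and 167 CPM with the MO against 70.4, 93.7 and 84.2 CPM without it. The log2 differences of the members that were higher but did not pass were between 0.82 for pwp1 and 1.12 for ftsj3.

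**Figure D3:**
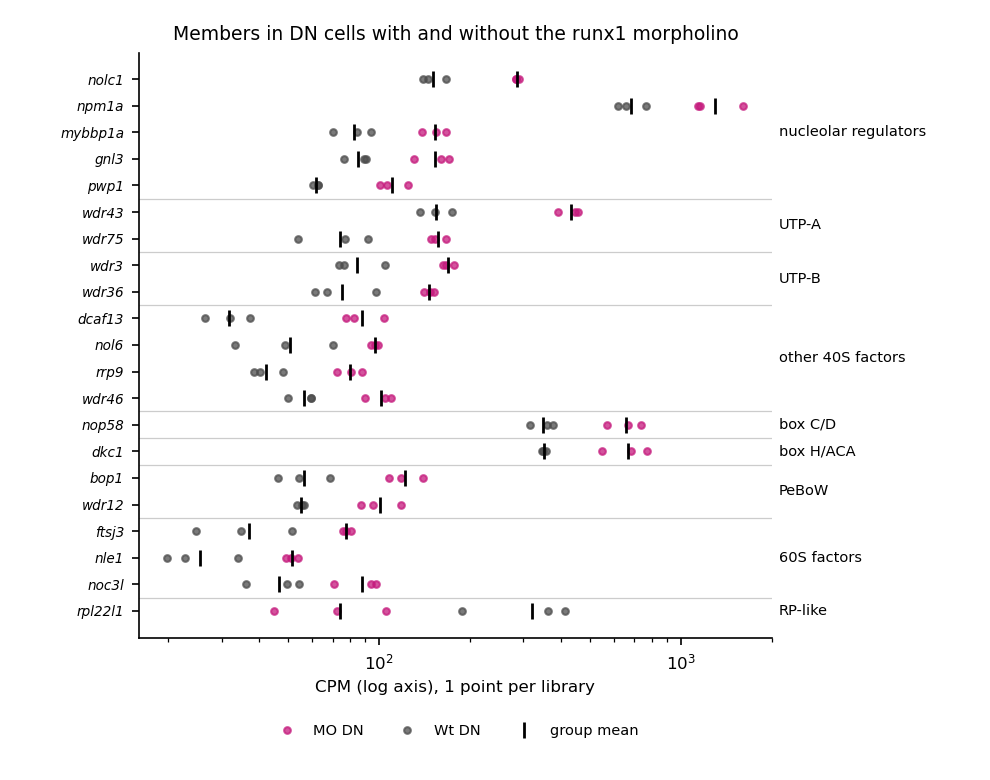
CPM of the 21 listed members in the 3 MO (magenta) and 3 Wt (grey) DN libraries on a log axis, with black ticks for the group means, ordered by role. The MO points lie to the right for 20 genes and to the left for rpl22l1; of these, wdr43, dcaf13 and rpl22l1 passed.

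Other genes of the pathway were listed for DN too. Of the 99 names taken as other ribosome assembly factors, 9 were listed, all 9 higher with the MO. Only cirh1a of these passed, at 153 ± 15.7 CPM with the MO against 71.3 ± 5.80 CPM without it. It codes for a further UTP-A protein. The list of names may not hold every factor of the pathway. The polymerase I subunit gene twistnb had a difference of 0.91 and did not pass. The Myc genes myca and mycb had differences of 1.28, which passed, and 1.01, which did not (adjusted p = 0.120). Moving with the same libraries, the 8 listed erythroid markers were all lower, summed at 365 to 669 CPM with the MO against 1417 to 1836 CPM without it, 4 of them passing. The 1 listed endothelial marker, cldn5b, was at 0.398 to 2.15 CPM with the MO and 2.62 to 4.87 CPM without it. The 3 listed myeloid markers were also lower, 8.03 to 9.47 CPM against 16.8 to 27.4 CPM, and did not pass. The part of these in the members' values was not tested.

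The HE against ARE and DN comparisons share no library. Both tables listed 85 genes, 20 of them members: 29.9% of the 67 members listed for HE against ARE and 95.2% of the 21 listed for DN. Of the other genes, 65 were listed for both, which is 2.44% of 2665 and 41.9% of 155. All 20 members were higher in HE and higher with the MO in DN cells. No other outcome was possible, given the 2 comparisons on their own. All 67 members listed for HE against ARE were higher, and the only lower DN member, rpl22l1, was not listed there. The 65 other genes were spread over the directions: 35 were higher in both, 14 lower in both, 15 lower in HE and higher with the MO, and 1 higher in HE and lower with the MO. Side by side, wdr43 differed by 1.41 between HE and ARE and by 1.48 between MO and Wt DN cells, and dcaf13 by 1.13 and 1.44. For the other 18 of the 20 members the second value was the lower, for example mybbp1a by 2.09 and 0.89, nle1 by 1.79 and 1.01, nol6 by 1.63 and 0.98. The difference between the 2 comparisons was not tested, since their tables were normalised separately.

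**Figure D4:**
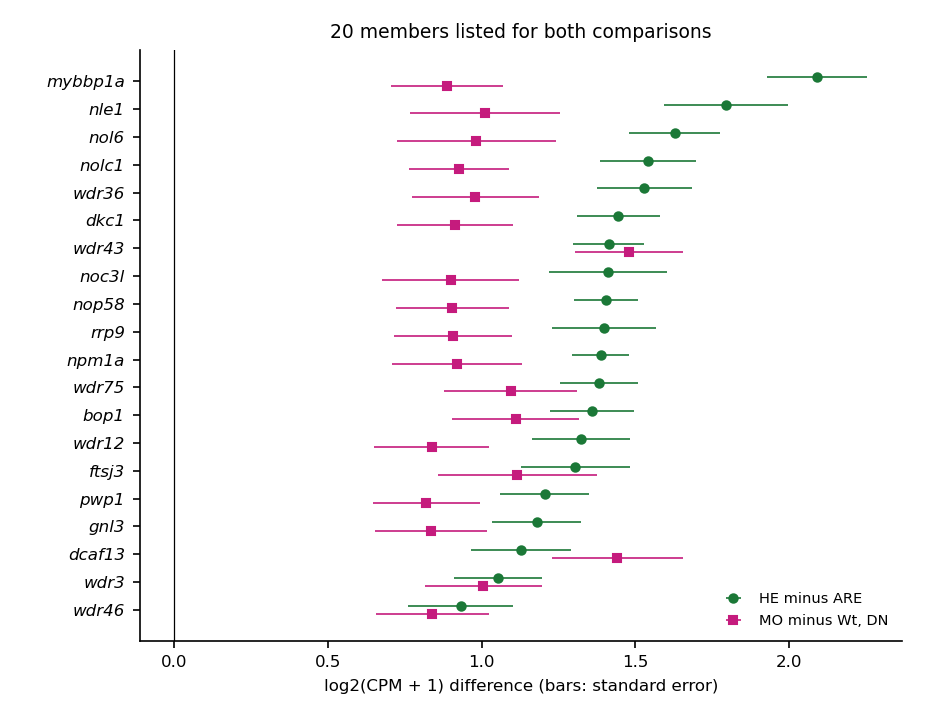
Log2(CPM + 1) differences with standard errors of the 20 members listed for both HE against ARE (green circles) and MO against Wt in DN cells (magenta squares), in the order of the first. All values are above 0; in DN cells only wdr43 and dcaf13 passed.

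In DP-R1hi cells 2 members were listed, both lower with the MO. The gene rpl22l1 codes for a paralogue of the ribosomal protein Rpl22 and is known in zebrafish to be needed for the emergence of haematopoietic stem cells. It measured 65.7, 47.9 and 104 CPM with the MO against 257, 229 and 169 CPM without it, a log2 difference of −1.63 ± 0.28 (SE, adjusted p = 0.0142). The groups did not overlap, and it was the 1 member of 2 that passed as lower, where 15.1% of listed genes (0.889% of tested genes) passed as lower and 36.1% of listed genes were lower without overlap. Its call was lost without Wt library 1 (adjusted p = 0.116) or Wt library 2 (0.0866). The same gene was lower with the MO in DN cells, at 106, 72.3 and 44.8 CPM with the MO against 412, 188 and 363 CPM without it, a log2 difference of −2.10 ± 0.35 (SE, adjusted p = 0.0454). There Wt library 2 was the lowest of its group by a wide margin, and the call was lost without MO library 2 (0.0672), Wt library 1 (0.488) or Wt library 3 (0.140). The MO effects on rpl22l1 in the 2 gates differed by 0.48 ± 0.50 (SE, DP-R1hi minus DN; limma interaction, adjusted p = 0.505 over the 63 genes listed in both MO tables). The gene rpl22l1 was not listed for HE against ARE. The paper treated genes that moved alike with the MO in both gates as off-targets and removed them.

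For the nucleolar gene mybbp1a the MO effects had opposite signs in the 2 gates, neither past the threshold used here. The paper, which tested counts with edgeR, places mybbp1a among its HE-specific genes that Runx1 activates. The gene was called by the authors' test in both gates and passed in neither with limma on CPM. In DP-R1hi it measured 168, 163 and 162 CPM with the MO against 226, 287 and 297 CPM without it, a log2 difference of −0.70 ± 0.17 (SE) that did not pass (adjusted p = 0.0728), although all MO libraries lay below all Wt libraries. In DN cells it was higher with the MO by 0.89 ± 0.18 (SE), also without passing (adjusted p = 0.115). The 3 DP-R1hi MO values were nearly equal and close to the DN MO values of 154, 139 and 167 CPM. The difference between the gates, tested directly, was −1.59 ± 0.30 (SE, limma interaction, adjusted p = 2.13e-04 over 63 genes), and 25 of the 63 genes passed this test. All 63 had been called by the authors for the MO in both gates on the same libraries. Genes called with opposite signs were therefore likely to pass, and the adjustment did not count the other genes tested. With rescaled libraries, an alternative chosen after seeing the data, the difference was −1.48 (limma interaction, adjusted p = 4.72e-04). The effect within DN became −0.0150 and that within DP-R1hi −1.499. This follows from the rescaling itself, which lowers every gene alike, by 0.91 in DN and 0.80 in DP-R1hi. Only the DN effect changed sign, and the difference stayed nearly as it was. The Wt DP-R1hi libraries are the HE libraries of the first comparison, so the values of mybbp1a there and here are not independent.

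**Figure D5:**
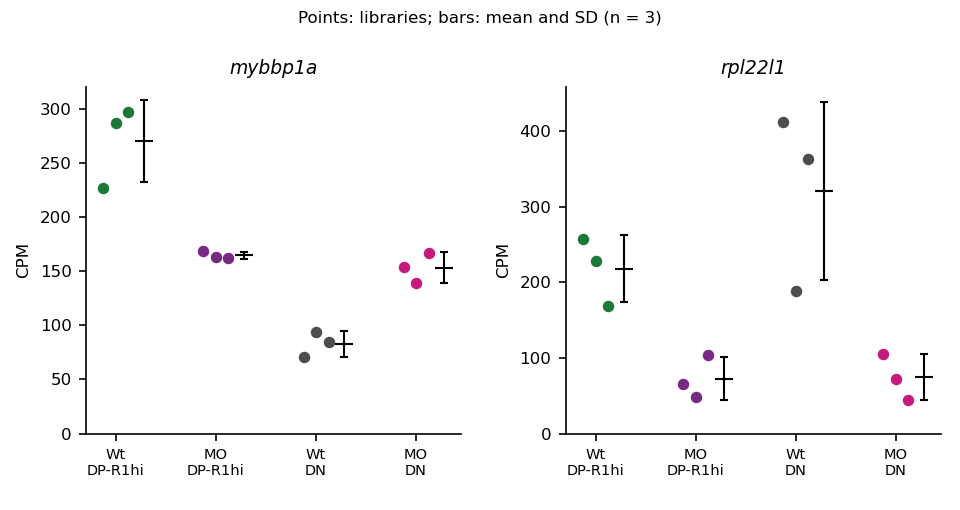
CPM of mybbp1a and rpl22l1 in the 4 groups of the MO experiment, 1 point per library, with the mean and SD beside the points. For mybbp1a the MO libraries are below Wt in DP-R1hi and above Wt in DN; for rpl22l1 they are below Wt in both gates.

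Other genes moved in the same DP-R1hi libraries. The Myc genes mycb and mycn passed as higher, by 1.17 and 1.06. The 10 listed erythroid markers were all higher, summed at 107796 to 170136 CPM with the MO against 38175 to 49970 CPM without it. The 10 listed epidermis and periderm markers were also all higher, 745 to 3692 CPM against 159 to 315 CPM, and 2 passed, while 7 of the 8 listed haemogenic markers passed as lower and 1 as higher. Of the 10 listed myeloid markers, 7 passed as higher, among them mfap4, a macrophage gene, with a log2 difference of 3.38, and 2 as lower, cpa5 (−2.72) and mpx, for the neutrophil peroxidase (−1.42). The sum of the 10 was 4074 to 5850 CPM with the MO against 8849 to 11088 CPM without it. The 4 listed neural crest and sclerotome markers were all higher, 41.1 to 61.6 CPM against 6.87 to 20.5 CPM, and 1 passed. From the pronephros, gut and liver list 3 genes had values, sox17, sox32 and ctsla, and all 3 passed as higher. They summed to 249.95 to 333 CPM with the MO against 40.5 to 99.9 CPM without it. Most of this sum was ctsla, at 213 ± 36.7 CPM against 52.7 ± 24.9 CPM. The paper reports sox17 and sox32 as HE-specific genes that Runx1 represses. Here sox17 was listed for HE against ARE and sox32 was not. From the list of other ribosome assembly factors only nucks1a was listed, at −0.73 and not passing. It codes for a nuclear kinase substrate and is not an established assembly factor, so no established factor of that list had values here. The part of these values in those of rpl22l1 and mybbp1a was not tested.

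All 68 members matched a gene in RefSeq, whose assembly (GRCz12tu) is not the build of the files and was used for neighbourhoods only. No member had another member as its neighbour. Overlap with another protein-coding gene was annotated for 12 members, and 1 of these partners was listed, plce1 at noc3l; without stated strand counting, reads of overlapping genes cannot be told apart. The names of npm1a and nhp2l1b mark each as 1 of a pair of duplicated zebrafish genes, between which reads may have been split. Inside 5 members lay 13 annotated snoRNA genes: 5 in dkc1, 3 in nop58, 2 in ncl, 2 in nop2 and 1 in nop56. This is 7.35% of the members, against 0.274% of the 27039 annotated protein-coding genes. The snoRNAs themselves were not analysed here.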

How the data were processed

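RNA of 15 libraries (5 groups of 3) was analysed from the authors' tables. Per the labels and methods, 2.2 ng of RNA per sample (integrity number above 8) was made into SMARTer low-input libraries, and the authors trimmed reads with Trimmomatic 0.32, aligned them with STAR (zebrafish Zv10), counted with featureCounts and tested with edgeR. The deposited CPM values are scaled to effective library sizes. The deposited p-value columns, the authors' FDR among them, were used only to recover how many genes were tested, 10916 for HE against ARE and 11479 for both MO tables; the authors' fold changes were not used. Within a library all values were multiples of 1 smallest step (tolerance 1e-04); taking it as 1 read gave the library sizes, but low values were too few for a count test.

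CPM were tested as log2(CPM + 1), which understates changes of low genes, with limma 3.58.1 (mean trend, two-sided, no replicate term) in R 4.3.3 over every listed gene; unlisted genes entered the adjustment as tests that did not pass. The code was tested on simulated data. The interaction was fitted over the 4 groups that the authors normalised together. Same-numbered DP-R1hi libraries deviated together (r = 0.128, 0.313 and 0.118), above the limit of 0.1 set for pairing. The differently numbered pair of MO library 1 and Wt library 3 also reached 0.118, so passing the limit was not particular to matching numbers. In the other comparisons not every same-numbered pair passed it. The labels do not say what a replicate number stands for, so p-values measure the spread between these libraries. Members and lists were chosen with earlier results of these data known. Named with every library's values were members in 2 or more tables, complete complexes, the 2 largest differences of each role in HE against ARE and members that did not pass or went against the rest; of other lists, up to 4 passing genes with the largest differences, plus a few chosen after their values were seen. Alternatives were pseudocounts of 0.1 and 5, a mean CPM of at least 5, rescaling, fewer tests, no trend, a replicate block and leaving out each library. Some genes and the list that holds them are not reported here.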

Additional observations from a re-analysis of the deposited data

Results flagged for a closer look

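The effect of the runx1 MO on mybbp1a differed between the gates. The difference, DP-R1hi minus DN, was −1.59 on the log2 scale (limma interaction over 12 libraries, adjusted p = 2.13e-04 over 63 genes); all 3 MO libraries were below all 3 Wt libraries in DP-R1hi, and all 3 were above in DN. Leaving out each library in turn kept the difference between −1.71 and −1.48, past the threshold each time. Of the 63 genes, 25 passed this test and 21 had MO effects of opposite sign, so mybbp1a was 1 of many. All 63 had been called in both gates on these same libraries, so the test is not independent of that choice. Erythroid markers moved in opposite directions in the same libraries, higher with the MO in DP-R1hi and lower in DN, and their part was not tested.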

How the results depend on the processing

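For HE against ARE, all 67 members passed under each alternative that kept all libraries, the replicate block included (67), and 64 to 67 when a library was left out, with a median log2 difference of 1.22 to 1.296; rescaling by median ratios over the listed genes moved the median to 2.10, the listed genes being mostly lower in HE. For DP-R1hi, 1 member passed as lower with the replicate block (1, no call changed), 2 after rescaling or with p adjusted over the listed genes only, which counts fewer tests, 0 without the mean trend, and 0 to 1 without a library. For DN, the count of members passing as higher was 0 after rescaling, 20 with p adjusted over the listed genes only, 1 without the mean trend, 8 with the replicate block, which added bop1, wdr75, wdr3, ftsj3, wdr36 and nolc1 (adjusted p 0.00901 to 0.0451), and 0 to 3 without a library; the count passing as lower was 0 with a pseudocount of 0.1 or without the mean trend and 0 to 1 without a library. Rescaling, which lowers every DN difference by 0.91 by construction, moved the DN median from 0.92 to 0.0133 and turned 6 members: mybbp1a to −0.0150, nop58 to −0.00438, wdr12 to −0.0600, pwp1 to −0.0787, wdr46 to −0.0590 and gnl3 to −0.0669. Where not given, the cause was not tested. Neither pseudocount, nor the block, rescaling or leaving out a library changed a call of the interaction, and the other alternatives were not run for it; with the block the difference for mybbp1a was −1.59. The pairs of libraries with the same number correlated at 0.0942, 0.183 and 0.267 for HE against ARE and 0.223, 0.181 and −0.0555 for DN, so the numbers were not taken as pairs there.

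The limits are those of tables that hold called genes only: members below the authors' threshold have no values, and 3 libraries a group leave the DN calls to single libraries. The lowest listed member value stood for 138 reads, and whether depth kept other genes of the pathway from being listed cannot be seen here.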

Other observations

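Most listed genes of several lists that feed growth went the same way as the ribosome genes between HE and ARE. The lists held 36 names for nucleotide synthesis, 62 for cell cycle and replication, 46 for aminoacyl-tRNA synthetases and 21 for chaperonins and folding. Names that were not listed have no values here. Of all listed genes, 38% passed as higher in HE. Of a list for purine and pyrimidine synthesis, all 18 listed genes passed as higher in HE with a median of 1.06, led by gart (85.5 ± 14.3 CPM in HE against 23.6 ± 3.38 CPM in ARE) and pfas (21.9 ± 6.18 CPM in HE against 6.06 ± 2.70 CPM in ARE), which act in purine synthesis. Of the translation initiation and elongation factors, 17 of 18 listed passed as higher and 1 as lower, with a median of 0.72. The gene eif4a2, for an mRNA helicase, led with 1.94. Among those higher were also eif4ebp3 and eif4ebp1, by 1.55 and 1.44, which code for inhibitors of cap-dependent translation. Of the chaperonin and folding genes 13 of 14 passed as higher, most by less than the ribosome genes (median 0.64), while hsp90aa1.1 fell by 1.90. Among 21 listed cell cycle and replication genes, 20 passed as higher, with a median of 0.79 and orc1, for an origin recognition protein, at 1.25. The remaining gene, mcm7, had a difference of −0.85 and did not pass. All 6 listed aminoacyl-tRNA synthetase genes passed as higher, by 0.68 to 0.86.

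In DN cells 2 nucleotide-synthesis genes were listed, ctps1b and ppat, with log2 differences of 1.02 and 0.90 that did not pass, and no translation factor, exosome or synthetase gene was listed.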
